A study of Rattus norvegicus with 6 samples.

Results

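The genes described here run the division of chromosomes: mitotic cyclins and kinases, the spindle checkpoint, the kinetochore, condensin, and the proteins of the spindle midzone and of cytokinesis. They were a list of 45 gene symbols looked up in a deposited table of 20675 rat genes, where 44 were found; Ccnb2 was not analysed here. RNA sequencing was done on primary rat cells grown from the disc of the temporomandibular (jaw) joint, a pad of fibrous cartilage. Cells in 3 libraries had received GSK101, an agonist of the calcium-permeable ion channel TRPV4, for 24 h, and cells in 3 control libraries had received the solvent DMSO for the same time. The sources used here do not give the concentration of GSK101, the age of the animals or the number of animals behind each library. Since the replicates may be technical, the p-values measure no more than the spread between these samples. Levels are in RPKM, reads per kilobase of gene length and per 1000000 reads counted to genes.

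Cells enter mitosis when cyclin B bound to the kinase CDK1 is switched on. Condensin then compacts the chromosomes, kinetochores built on CENP-A chromatin capture spindle microtubules, and the spindle checkpoint holds back the anaphase-promoting complex until all chromosomes are attached. Most of these genes are transcribed mainly in late S phase, G2 and mitosis, so in a culture their transcripts mark the dividing cells. Their promoters often carry a cell cycle genes homology region (CHR), which binds MuvB complexes together with B-MYB or DREAM components, and CCAAT boxes, which bind NF-Y.

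To show these elements, the promoter windows of 7 genes with different roles are printed from RefSeq (build GRCr8), from 150 bases before to 30 bases after the gene's start, 5′ to 3′ on the gene's strand. Capitals mark the CHR letters TTTGAA and the letters CCAAT, on either strand (TTCAAA and ATTGG). Bub3 is shown beside 6 genes that rose because it was 1 of the 2 that did not pass the test. These 6 all carry a TTTGAA match and Bub3 does not, but this display is a selection. No other letters were searched for as a CHR, so a CHR match here means TTTGAA only. A gene without a match may still hold a CHR with other letters. In the wider window described below, 9 genes had no CHR match, and all of them except Bub3 were called higher. They include Cenpe, which had the largest log2 fold change of all members (1.27).
Cdk1 (GRCr8 chr20:19265143-19265322, plus strand): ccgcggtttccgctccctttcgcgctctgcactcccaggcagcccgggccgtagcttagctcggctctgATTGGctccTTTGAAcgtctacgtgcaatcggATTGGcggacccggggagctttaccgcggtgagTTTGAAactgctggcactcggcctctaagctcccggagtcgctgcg
Cenpf (GRCr8 chr13:103760857-103761036, minus strand): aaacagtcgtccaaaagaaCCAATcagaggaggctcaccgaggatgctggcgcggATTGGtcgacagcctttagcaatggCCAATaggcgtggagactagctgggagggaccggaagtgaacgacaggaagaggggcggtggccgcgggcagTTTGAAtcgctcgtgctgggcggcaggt
Top2a (GRCr8 chr10:84473064-84473243, minus strand): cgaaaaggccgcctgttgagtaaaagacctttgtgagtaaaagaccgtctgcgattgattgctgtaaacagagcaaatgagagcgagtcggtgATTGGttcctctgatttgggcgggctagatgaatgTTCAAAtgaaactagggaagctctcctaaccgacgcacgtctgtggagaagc
Prc1 (GRCr8 chr1:143659331-143659510, plus strand): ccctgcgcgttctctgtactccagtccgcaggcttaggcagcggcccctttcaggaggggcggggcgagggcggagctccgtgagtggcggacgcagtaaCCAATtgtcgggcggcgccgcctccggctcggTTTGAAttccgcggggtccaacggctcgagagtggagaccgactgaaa
Cdc20 (GRCr8 chr5:137255770-137255949, minus strand): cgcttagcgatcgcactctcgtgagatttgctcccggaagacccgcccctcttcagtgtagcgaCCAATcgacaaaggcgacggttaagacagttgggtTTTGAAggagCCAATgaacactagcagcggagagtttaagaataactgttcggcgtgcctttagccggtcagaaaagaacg
Ncapg (GRCr8 chr14:69645416-69645595, minus strand): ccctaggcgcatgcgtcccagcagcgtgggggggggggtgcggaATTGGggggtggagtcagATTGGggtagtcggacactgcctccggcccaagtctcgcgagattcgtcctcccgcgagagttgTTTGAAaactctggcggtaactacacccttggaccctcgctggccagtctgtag
Bub3 (GRCr8 chr1:195760382-195760561, plus strand): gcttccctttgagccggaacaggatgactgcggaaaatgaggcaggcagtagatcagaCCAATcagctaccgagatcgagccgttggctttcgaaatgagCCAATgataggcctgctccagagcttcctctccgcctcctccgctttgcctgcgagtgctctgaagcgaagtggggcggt

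Within the whole window, 250 bases before to 50 after the start, 38 of the 44 measured genes had an entry in the RefSeq table. TTTGAA was present on either strand in 29 of the 38 (76.3%), compared with 18.3% of all 33469 promoters in the table, 11.8% of the 9424 promoters of genes tested for a change and 16.9% of the 2081 promoters of genes called higher. In 26 of the 38 (68.4%) a match lay between 100 bases before and 50 bases after the start, compared with 8.21% of all promoters. CCAAT was found in 28 of the 38 (73.7%), against 37.5% of all promoters, and 20 of the 38 (52.6%) had 2 or more matches, against 11.2%. The letters TTTNNCGC, an E2F-like element, were present in 5 of the 38 (13.2%), against 4.92% of all promoters, 8.63% of those of tested genes and 12.3% of those of genes called higher. Between 100 bases before and 50 after the start it was in 2 of the 38 (5.26%), against 4.71% of promoters of tested genes and 7.5% of those of genes called higher. These are matches of letters, chosen for this search after the response of the genes was known, and not measured binding sites.

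**Figure D1:**
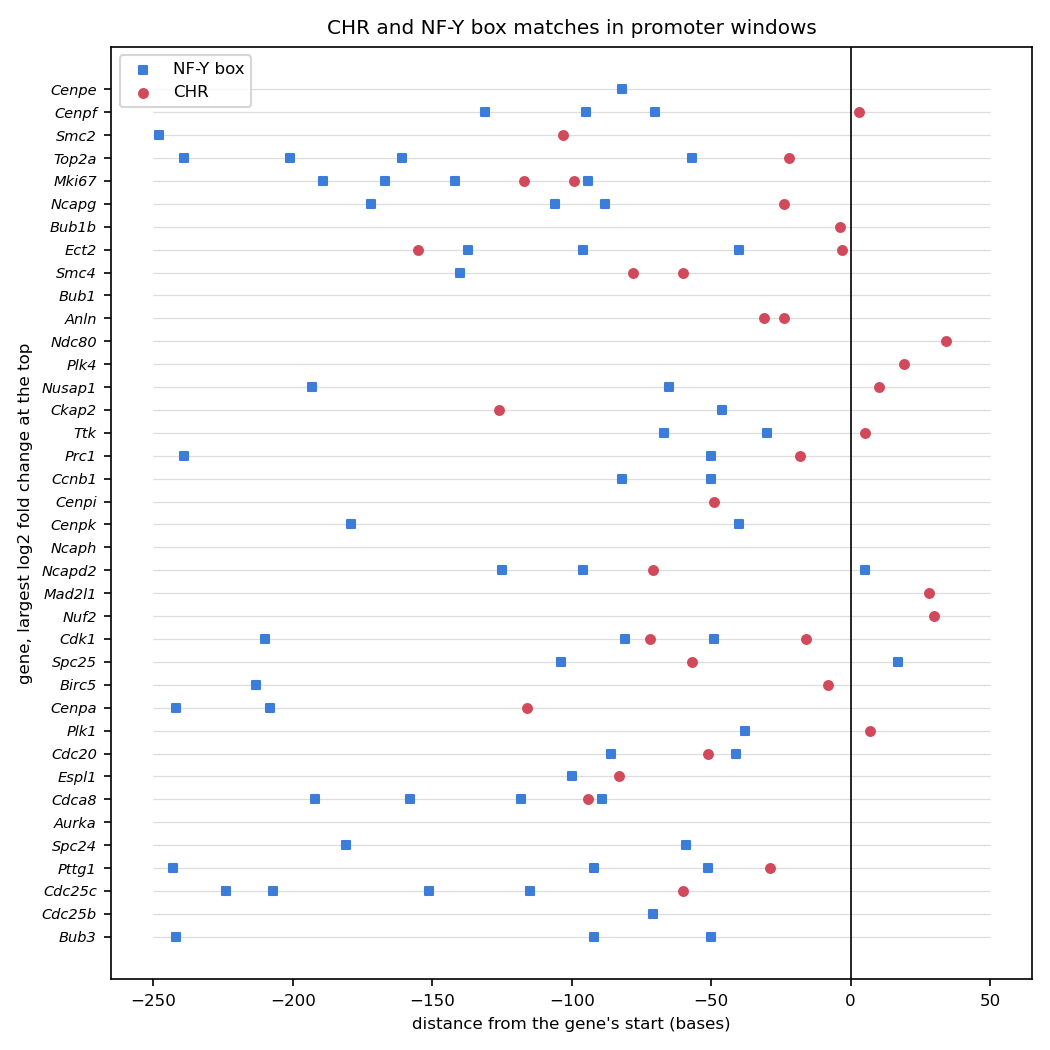
Position of CHR (TTTGAA, circles) and NF-Y box (CCAAT, squares) matches on either strand in the promoter window of the 38 genes with a RefSeq entry, as distance from the gene's start in bases; genes are ordered by log2 fold change, largest at the top. CHR matches are present in 29 genes and lie mostly near the start. Bub3, at the bottom, has 3 NF-Y boxes and no CHR match, and Cenpe, at the top, has no CHR match either.

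With GSK101, 42 of the 44 genes were higher and none was lower in limma's test at an adjusted p under 0.05. Among all 12801 genes tested, 20.1% were called higher and 11.9% lower. No member was lower at an unadjusted p under 0.05 either, nor with limma-voom on the reads recovered from RPKM, which called 43 higher (23.0% of all genes). The median log2 fold change of the 44, on the log2(RPKM + 0.5) scale, was 0.80, and that of all genes tested was 0.03. For 43 of the 44 every GSK101 library lay above every control library, which held for 28.5% of all genes tested. The ratio of mean RPKM reached 2 for 10 of the 44, against 1.84% of all genes tested, and ran from 1.05 to 2.45 with a median of 1.77. At an adjusted p under 0.001, 33 of the 44 were called higher, against 2.84% of all genes. Ranked by log2 fold change among all genes tested, 40 of the 44 stood in the top 10%, 36 in the top 5% and 9 in the top 1%. In bulk samples, more dividing cells and more RNA of these genes per cell cannot be told apart.

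**Figure D2:**
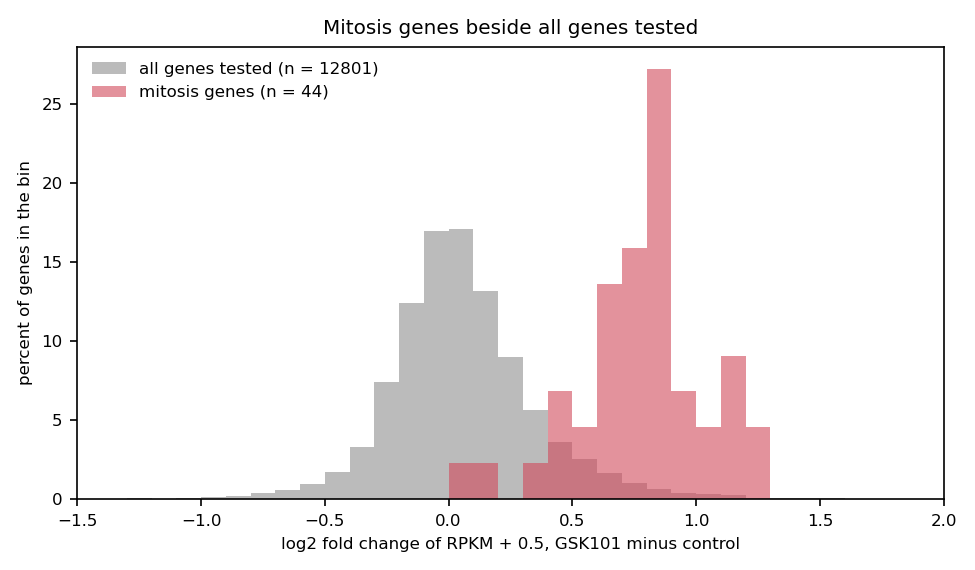
Percent of genes in each 0.1-wide bin of the log2 fold change of RPKM + 0.5 (GSK101 minus control), for all 12801 genes tested (grey) and the 44 mitosis genes (red). The members' median is 0.80 and that of all genes 0.03, and no member lies below 0.

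The libraries held 43061102 to 45705238 counted reads, and a member gene rested on 102 to 21081 reads in a library. Of these reads the 44 genes took 0.253%, 0.276% and 0.257% in the 3 controls and 0.478%, 0.484% and 0.516% in the 3 GSK101 libraries. Their summed RPKM went from 929 ± 39.2 to 1601 ± 69.5 (SD, n = 3), a ratio of 1.72. Within the GSK101 group, replicate 3 was the highest library for 34 of the 44 genes, and within the controls replicate 2 was the highest for 26. Their mean log2 difference from the control mean was 0.75 in GSK101 replicates 1 and 2 and 0.83 in replicate 3. Of the markers of disc fibroblasts, Col3a1, Col1a1, Thy1 and Fn1 were abundant (mean control RPKM 3521, 1903, 1500 and 887). Lum, Dcn and Pdgfra of the same list were at 32.0, 17.0 and 11.7. Of the chondrocyte markers, Col2a1, the cartilage collagen gene, was at 0.0164, while Acan was at 33.6 and Sox9 at 2.80. The smooth muscle markers Acta2 and Myh11 were at 4946 and 396 in the controls. For the marker counts that follow, the shares among all genes tested were 20.1% higher and 11.9% lower. Of 7 fibroblast markers 4 rose and 1 fell. In 16 alternative analyses the rises of Dcn and Fn1 were called in only 8 and 9, and the groups of Fn1 overlapped. Lum, Pdgfra and Thy1 kept their calls in 15, 16 and 15. Col1a1, not called here, was called lower in 6. Of 6 chondrocyte markers 3 stayed below 0.5 RPKM in every library. None of the 2 tested was called (0 at an unadjusted p under 0.05, 0 with limma-voom). In the skeletal muscle list 3 of 5 stayed below 0.5 RPKM in every library. Of the 2 tested, Acta1 fell and Des was not called. Of 5 endothelial markers found, 4 stayed below 0.5 RPKM in every library, and the 5 summed to 0.699 to 0.977 RPKM in the controls and 1.16 to 1.32 with GSK101. The only one tested, Kdr, rose from 0.551 ± 0.0795 to 1.01 ± 0.0485 RPKM (SD, n = 3), 1.84-fold (adjusted p = 0.00875). The 6 macrophage and leukocyte markers summed to 61.2 to 78.3 and 62.3 to 83.1 RPKM, with Lyz2 as the most abundant and the leukocyte gene Ptprc at 0.493 and 0.419. Of the 3 that were tested, Cd14 rose from 1.88 ± 0.170 to 3.18 ± 0.321 RPKM (SD, n = 3), 1.69-fold (adjusted p = 0.00233), and the other 2 were not called. Of 4 tested pericyte and smooth muscle markers 3 fell. The other, Cspg4, was not called (log2 fold change 0.20, adjusted p = 0.116), though it was called higher with limma-voom and without control replicate 1, and its sign turned with the length trend removed. The list summed to 5301 to 5505 RPKM in the controls and 2901 to 3167 with GSK101. The part of a changed cell makeup in the rise of the mitosis genes was not tested.

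**Figure D3:**
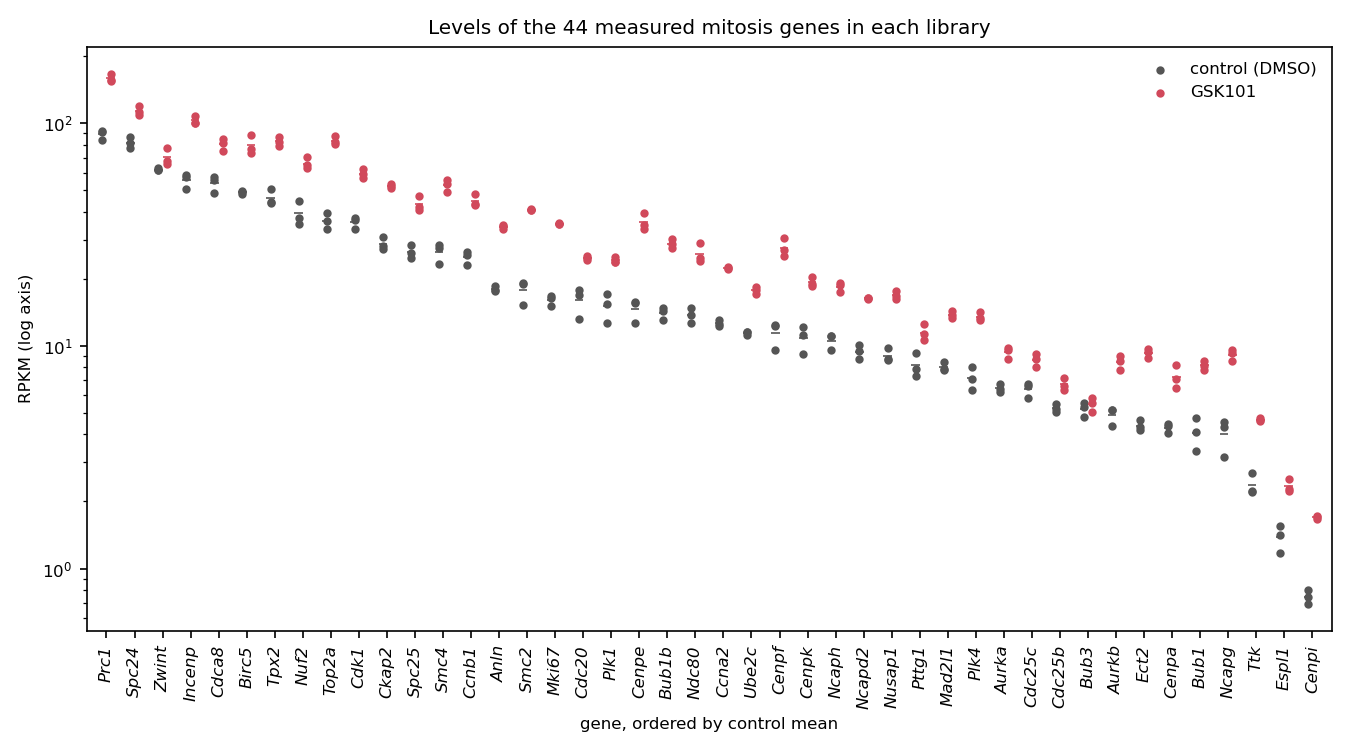
RPKM (log axis) of the 44 measured genes in each library, ordered by control mean; grey points are the 3 controls, red points the 3 GSK101 libraries, and short lines the group means. The red points lie above the grey ones for every gene except Bub3, whose groups overlap.

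Mki67 and Top2a, general marks of proliferating cells, were among the strongest responders. Mki67 encodes the Ki-67 protein that coats mitotic chromosomes, and lies on chromosome 1 from 207993895 to 208020454 (Rnor_6.0, as for all gene positions below). It had 15.1, 16.7 and 16.4 RPKM in the controls and 35.7, 35.2 and 35.3 with GSK101, a 2.21-fold rise (log2 fold change 1.12, SE 0.05, adjusted p = 8.28e-05). Top2a, on chromosome 10 from 86901007 to 86932154, encodes the topoisomerase that untangles sister chromatids. Its levels were 33.5, 39.7 and 36.3 RPKM in the controls and 80.4, 82.6 and 87.4 with GSK101, a 2.29-fold rise (log2 fold change 1.19, SE 0.07, adjusted p = 9.76e-05). The lowest GSK101 library held 2.11 times the highest control for Mki67 and 2.03 times for Top2a, so the groups were far apart in both.

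All 5 measured genes of the CDK1 switch rose, by 0.32 to 0.83 on the log2 scale. Cdk1, the mitotic kinase itself, on chromosome 20 from 20576377 to 20591549, had 37.4, 36.8 and 33.5 RPKM in the controls and 62.1, 56.9 and 59.3 with GSK101 (1.66-fold; log2 fold change 0.72, SE 0.06, adjusted p = 0.000176). Its partners are cyclin A2, which acts from S phase on, and cyclin B1, which drives entry into mitosis. Ccna2 had 12.3, 12.5 and 13.1 RPKM in the controls and 22.4, 22.2 and 22.7 with GSK101 (1.77-fold; log2 fold change 0.80, SE 0.05, adjusted p = 9.76e-05). Ccnb1 had 25.6, 26.3 and 23.0 RPKM in the controls and 43.1, 43.4 and 48.1 with GSK101 (1.80-fold; log2 fold change 0.83, SE 0.07, adjusted p = 0.000189). The 2 cyclin genes thus had log2 fold changes of 0.80 and 0.83, with intervals that overlap. The CDC25 phosphatases, which remove the inhibitory phosphates from CDK1, rose least in this group. Cdc25b had 5.23, 5.48 and 5.06 RPKM in the controls and 6.31, 6.63 and 7.20 with GSK101 (1.28-fold; log2 fold change 0.32, SE 0.07, adjusted p = 0.00871), and Cdc25c had 5.86, 6.63 and 6.74 RPKM in the controls and 8.76, 8.06 and 9.18 with GSK101 (1.35-fold; log2 fold change 0.41, SE 0.07, adjusted p = 0.00516). Their groups did not overlap, but the gap was narrow, with the highest control of Cdc25b at 5.48 and its lowest GSK101 library at 6.31. The log2 ratio of Cdc25c to Cdc25b was 0.28 ± 0.13 and 0.37 ± 0.10, with overlapping values (exact two-sided permutation p = 0.4, adjusted p = 0.4 over 5 pairs of related genes).

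The 3 mitotic kinases listed apart from their complexes rose by 0.51 to 0.88. Plk1, the polo-like kinase with roles from mitotic entry to cytokinesis, had 17.0, 15.4 and 12.7 RPKM in the controls and 23.9, 25.0 and 23.9 with GSK101 (1.61-fold; log2 fold change 0.68, SE 0.10, adjusted p = 0.00184). Plk4, which starts centriole duplication, had 6.35, 8.06 and 7.08 RPKM in the controls and 13.1, 14.1 and 13.4 with GSK101 (1.89-fold; log2 fold change 0.88, SE 0.08, adjusted p = 0.000369). Aurka, the spindle pole kinase Aurora A, had 6.71, 6.38 and 6.22 RPKM in the controls and 9.74, 9.62 and 8.73 with GSK101 (1.45-fold; log2 fold change 0.51, SE 0.06, adjusted p = 0.00105). The controls of Plk1 were the most spread of the 3, and each stayed below the lowest GSK101 library. The log2 ratio of Plk1 to Plk4 was 1.07 ± 0.31 (SD, n = 3) without and 0.84 ± 0.02 with GSK101, with overlapping values (exact two-sided permutation p = 0.3, adjusted p = 0.375).

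Of the 5 spindle checkpoint genes 4 rose and Bub3 did not pass the test. Bub1 and Bub1b encode the checkpoint kinase BUB1 and its relative BUBR1, Mad2l1 the MAD2 protein that inhibits CDC20, and Ttk the kinase MPS1 that starts the checkpoint signal. Bub1 had 3.37, 4.09 and 4.75 RPKM in the controls and 8.10, 7.82 and 8.60 with GSK101 (2.01-fold; log2 fold change 0.93, SE 0.11, adjusted p = 0.000809). Mad2l1 had 7.85, 8.45 and 7.79 RPKM in the controls and 13.7, 14.3 and 13.4 with GSK101 (1.72-fold; log2 fold change 0.75, SE 0.05, adjusted p = 0.000148). Ttk, among the scarcer members, had 2.23, 2.21 and 2.69 RPKM in the controls and 4.60, 4.63 and 4.73 with GSK101 (1.96-fold; log2 fold change 0.85, SE 0.08, adjusted p = 0.000405). In these 3 genes the GSK101 libraries lay close together and well apart from the controls, and Bub1b rose 2.04-fold (log2 fold change 1.01, SE 0.06, adjusted p = 0.000101).

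Bub3, on chromosome 1 from 203524426 to 203557337, encodes the protein through which BUB1 and BUBR1 reach the kinetochore. It had 5.32, 5.52 and 4.77 RPKM in the controls and 5.86, 5.53 and 5.07 with GSK101, with overlapping groups, a ratio of 1.05 and a log2 fold change of 0.07 (95% interval -0.11 to 0.25, adjusted p = 0.54). This interval lies below the median of the 44 genes, 0.80. Under quantile normalization its log2 fold change was -0.0013. The log2 ratio of Bub1 to Bub3 was -0.37 ± 0.33 (SD, n = 3) without and 0.58 ± 0.16 with GSK101, a 1.92-fold difference with no overlap between the groups (exact two-sided permutation p = 0.1, adjusted p = 0.167 over 5 pairs of related genes). With 3 libraries against 3 no p under 0.1 can be reached.

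The chromosomal passenger complex corrects wrong attachments at the inner centromere and moves to the midzone in anaphase. All 4 of its genes rose, by 0.58 to 0.89. Aurkb, its kinase Aurora B, had 5.13, 5.15 and 4.34 RPKM in the controls and 9.05, 7.76 and 8.56 with GSK101 (1.74-fold; log2 fold change 0.74, SE 0.08, adjusted p = 0.000798). Incenp, the scaffold of the complex, on chromosome 1 from 225925773 to 225952516, had 58.4, 57.4 and 50.9 RPKM in the controls and 101, 100.1 and 108 with GSK101 (1.85-fold; log2 fold change 0.89, SE 0.06, adjusted p = 0.000118). Birc5, which encodes survivin, had 48.9, 49.7 and 48.3 RPKM in the controls and 76.3, 73.8 and 88.8 with GSK101 (1.63-fold; log2 fold change 0.69, SE 0.07, adjusted p = 0.000433). Aurkb transcripts were far fewer per length than those of its partners, at gene lengths of 4404 bases for Aurkb and 3566, 1517 and 873 for Incenp, Cdca8 and Birc5. Reads per library were 845 to 1775 for Aurkb and 1862 to 3340 for Birc5. Shares of RPKM rest on these lengths. Aurkb took 2.98 ± 0.11% (SD, n = 3) of the summed RPKM of the 4 genes in the control libraries and 3.12 ± 0.30% in those with GSK101. Incenp took 34.0 ± 0.67% and 37.9 ± 0.64%, and Cdca8, which encodes borealin and rose 1.50-fold, took 32.9 ± 0.90% and 29.7 ± 1.14%. The groups did not overlap for these last shares, which were not tested. The log2 ratio of Aurka to Aurkb was 0.41 ± 0.11 and 0.15 ± 0.15, without overlap (exact two-sided permutation p = 0.1, adjusted p = 0.167), and the size of this test does not resolve a difference in response.

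The centromere and kinetochore genes spanned the widest range of responses, from 0.18 to 1.27. Cenpe and Cenpf, which encode a large kinetochore motor and a large protein of the kinetochore's outer corona, had the largest log2 fold changes of all 44 genes. Cenpe, on chromosome 2 from 240396152 to 240454747, had 12.6, 15.6 and 15.8 RPKM in the controls and 33.3, 35.0 and 39.3 with GSK101 (2.45-fold; log2 fold change 1.27, SE 0.10, adjusted p = 0.00016). Cenpf, on chromosome 13 from 108132499 to 108178609, had 9.60, 12.3 and 12.4 RPKM in the controls and 25.4, 27.0 and 30.5 with GSK101 (2.42-fold; log2 fold change 1.24, SE 0.11, adjusted p = 0.000264). The lowest GSK101 library held 2.11 times the highest control for Cenpe and 2.05 times for Cenpf, and control replicate 1 was the lowest library of both genes. Cenpa, the histone H3 variant that defines centromeres, had 4.38, 4.08 and 4.44 RPKM in the controls and 7.11, 6.47 and 8.21 with GSK101 (1.69-fold; log2 fold change 0.69, SE 0.09, adjusted p = 0.00124). Cenpi and Cenpk, of the inner kinetochore network on CENP-A chromatin, rose 2.27-fold and 1.77-fold (adjusted p = 0.000679 and 0.000891). Cenpi was the scarcest member, at a mean of 0.746 RPKM in the controls, and the exons of Cenpk share 329 bases, 20.05% of its length, with Ppwd1 on the opposite strand.

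The NDC80 complex, a rod of 4 proteins, is the main microtubule binder of the kinetochore. Its genes all rose. Ndc80 had 12.6, 14.8 and 13.7 RPKM in the controls and 24.1, 24.8 and 28.9 with GSK101 (1.89-fold; log2 fold change 0.89, SE 0.08, adjusted p = 0.000346). Spc24 had 86.3, 81.5 and 77.6 RPKM in the controls and 113, 109 and 120.0 with GSK101 (1.39-fold; log2 fold change 0.48, SE 0.05, adjusted p = 0.000771). Nuf2 and Spc25 rose 1.68-fold and 1.64-fold (adjusted p = 0.000872 and 0.000422). Per length, Spc24 made up 50.8 ± 3.17% of the summed RPKM of the 4 genes in the controls and 45.8 ± 0.75% with GSK101, and Ndc80 8.50 ± 0.49% and 10.4 ± 0.46% (SD, n = 3), without overlap in either case. The complex holds its subunits in equal numbers, and the RPKM values of the 4 genes were not equal in either group. Such a comparison between genes rests on the gene lengths used, 865 bases for Spc24 and 3427 for Ndc80. Whether the transcripts differ in number was not tested.

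Zwint, on chromosome 20 from 17075771 to 17091766, encodes a partner of the outer kinetochore scaffold KNL1 and was the other member that did not pass. It had 61.5, 63.0 and 61.4 RPKM in the controls and 67.9, 65.8 and 77.3 with GSK101, so the GSK101 libraries were all higher, though replicate 3 stood apart from the other 2. The ratio was 1.14 and the log2 fold change 0.18 (SE 0.06, 95% interval 0.04 to 0.32, adjusted p = 0.0606). It was called higher after rescaling to TPM, with limma-voom and without GSK101 replicate 2, with log2 fold changes of 0.22, 0.18 and 0.22. Zwint had the third highest control level of the 44 genes, so its low response did not go with a low level.

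**Figure D4:**
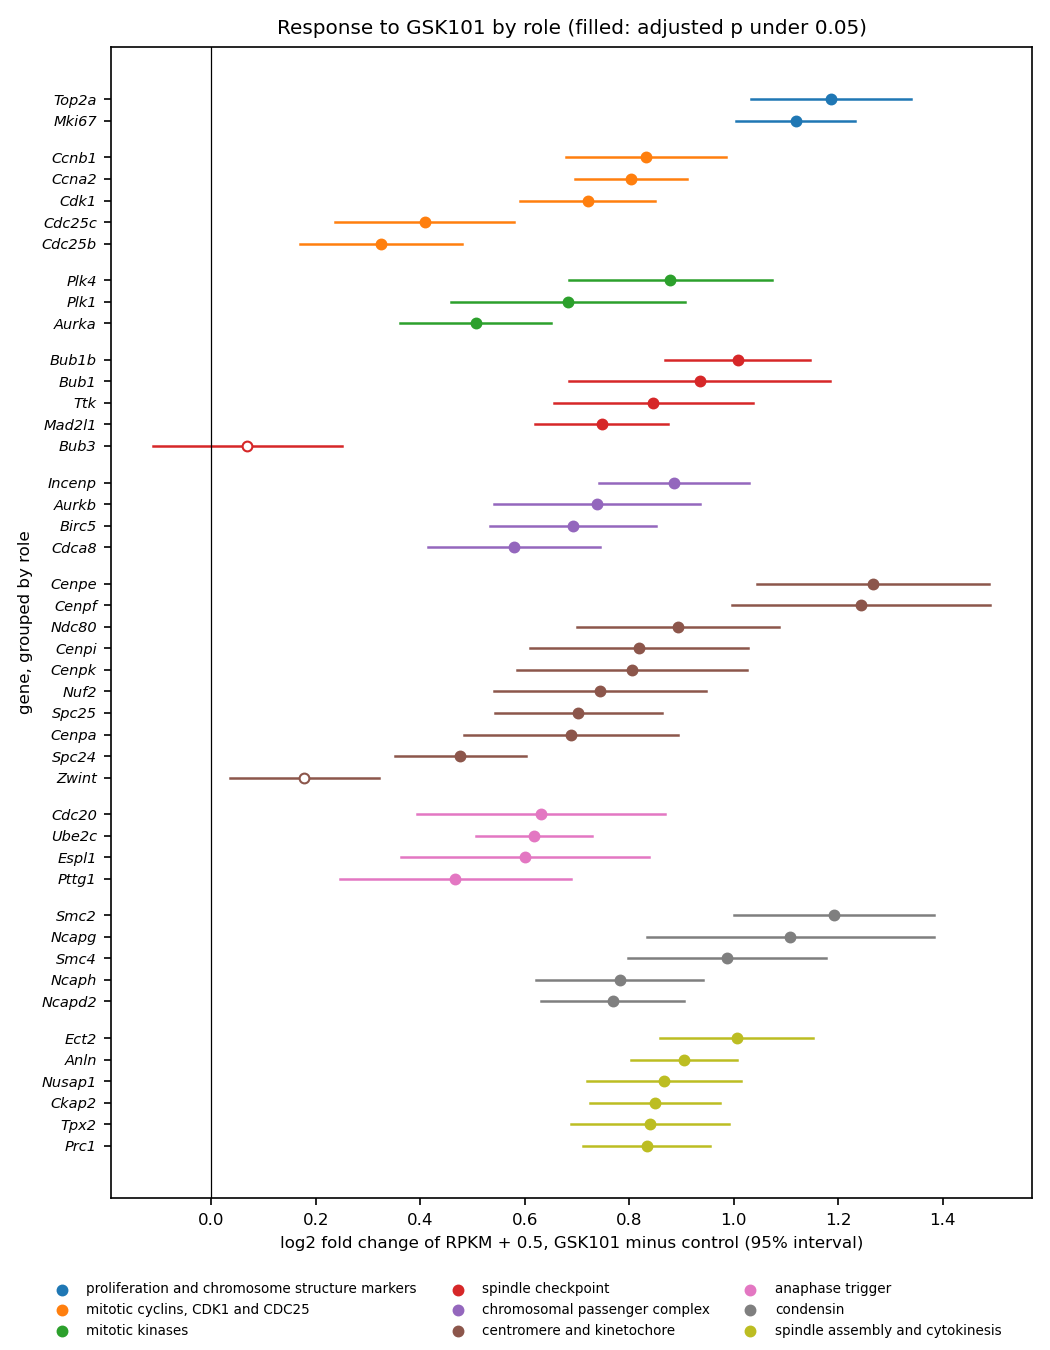
Log2 fold change of RPKM + 0.5 (GSK101 minus control; points) with 95% intervals from limma (lines) for the 44 genes, coloured and grouped by role; filled points are genes called higher at an adjusted p under 0.05. Only Bub3 and Zwint have open points, at 0.07 and 0.18, and Cenpe has the largest value, 1.27.

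The genes of the anaphase trigger rose by 0.47 to 0.63, so all 4 lay below the median of the 44. Cdc20, which activates the anaphase-promoting complex, had 16.9, 17.8 and 13.2 RPKM in the controls and 24.2, 24.8 and 25.4 with GSK101 (1.55-fold; log2 fold change 0.63, SE 0.10, adjusted p = 0.00324). Ube2c, the ubiquitin-conjugating enzyme of that complex, had 11.2, 11.5 and 11.6 RPKM in the controls and 17.9, 17.2 and 18.4 with GSK101 (1.56-fold; log2 fold change 0.62, SE 0.05, adjusted p = 0.000172). Its values were among the tightest, with the controls spanning 0.366 RPKM. Pttg1, the securin that restrains separase, had 7.31, 9.32 and 7.89 RPKM in the controls and 10.6, 11.3 and 12.5 with GSK101 (1.40-fold; log2 fold change 0.47, SE 0.10, adjusted p = 0.00845). Espl1, the separase that cuts cohesin, had 1.55, 1.41 and 1.17 RPKM in the controls and 2.23, 2.52 and 2.27 with GSK101 (1.70-fold; log2 fold change 0.60, SE 0.10, adjusted p = 0.00394). Pttg1 had the second largest adjusted p of the 42 called genes, after Cdc25b, and its lowest GSK101 library held 1.14 times its highest control.

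Condensin I folds chromatin into mitotic chromosomes and consists of the ATPases SMC2 and SMC4 with 3 other subunits. All 5 genes rose, by 0.77 to 1.19, with a median of 0.99. Smc2, on chromosome 5 from 68717519 to 68763850, had 15.2, 19.1 and 18.9 RPKM in the controls and 40.9, 41.1 and 40.9 with GSK101 (2.31-fold; log2 fold change 1.19, SE 0.08, adjusted p = 0.000116). Smc4 had 23.2, 27.6 and 28.3 RPKM in the controls and 49.2, 53.1 and 55.7 with GSK101 (2.00-fold; log2 fold change 0.99, SE 0.08, adjusted p = 0.000232). The log2 ratio of Smc2 to Smc4 was -0.57 ± 0.04 and -0.36 ± 0.09, a 1.16-fold difference (exact two-sided permutation p = 0.1, adjusted p = 0.167). Ncapg had 3.17, 4.32 and 4.53 RPKM in the controls and 8.57, 9.27 and 9.55 with GSK101 (2.28-fold; log2 fold change 1.11, SE 0.12, adjusted p = 0.000597), and Ncapd2 had 10.0, 9.45 and 8.72 RPKM in the controls and 16.2, 16.4 and 16.4 with GSK101 (1.74-fold; log2 fold change 0.77, SE 0.06, adjusted p = 0.000169). Both SMC genes stood above the 3 other subunits in RPKM in every library, and Ncapg, the scarcest, rose more than Ncapd2 and Ncaph (1.75-fold) in the point estimates, with intervals from 0.83 to 1.38 for Ncapg and from 0.63 to 0.91 for Ncapd2.

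All 6 genes for spindle assembly and cytokinesis rose, by 0.83 to 1.01. Prc1, which bundles the antiparallel microtubules of the midzone and lies on chromosome 1 from 142087208 to 142108746, was the most abundant of the 44 in the controls. It had 91.3, 92.2 and 84.0 RPKM in the controls and 155, 156 and 167 with GSK101 (1.79-fold; log2 fold change 0.83, SE 0.05, adjusted p = 0.000102). Anln, the anillin of the contractile ring, had 17.7, 18.6 and 17.9 RPKM in the controls and 33.4, 34.4 and 35.0 with GSK101 (1.90-fold; log2 fold change 0.91, SE 0.04, adjusted p = 8.28e-05), and Ect2, which activates RhoA there, rose 2.12-fold (log2 fold change 1.01, SE 0.06, adjusted p = 0.000102). Tpx2, the activator of Aurora A on spindle microtubules, had 43.7, 50.6 and 44.3 RPKM in the controls and 79.2, 82.5 and 87.1 with GSK101 (1.80-fold; log2 fold change 0.84, SE 0.07, adjusted p = 0.000175). Ckap2, a spindle microtubule protein, had 28.1, 31.0 and 27.3 RPKM in the controls and 52.1, 51.3 and 53.2 with GSK101 (1.81-fold; log2 fold change 0.85, SE 0.05, adjusted p = 0.000102), and Nusap1, which binds microtubules near chromatin, rose 1.87-fold (adjusted p = 0.000148). For each of these 6 genes the lowest GSK101 library was above the highest control.

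The size of the response varied with gene length among the members. Across the 44 genes the log2 fold change was larger in longer genes (Spearman's rho 0.68, Pearson's r 0.58), a description across genes measured in the same libraries, which are not independent replicates. Over all 12801 genes tested the same rho was 0.18. The 22 shorter members, of 865 to 2928 bases, had a median log2 fold change of 0.69, and the 22 longer ones, of 3287 to 10069 bases, a median of 0.90. All tested genes in the same length ranges had medians of -0.0032 and 0.11. After the length trend of each library was removed, the medians of the shorter and longer members were 0.67 and 0.81, rho was 0.54, and 42 were still called higher. Cenpf, Mki67 and Cenpe are the longest members, and Espl1, at 6835 bases, was long with a log2 fold change of 0.60. Espl1 was scarce (mean control RPKM 1.38), and the 0.5 added to RPKM lowers the log2 fold change of scarce genes. Its ratio of mean RPKM was 1.70, beside a median of 1.77 over the members. Between log2 fold change and control level rho was 0.04. The 29 genes with a TTTGAA match had a median log2 fold change of 0.83 and a range of 0.41 to 1.24. The 9 without one had a median of 0.78 and a range of 0.07 to 1.27. Cenpe and Bub3, at the ends of the order, were both among the 9.

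**Figure D5:**
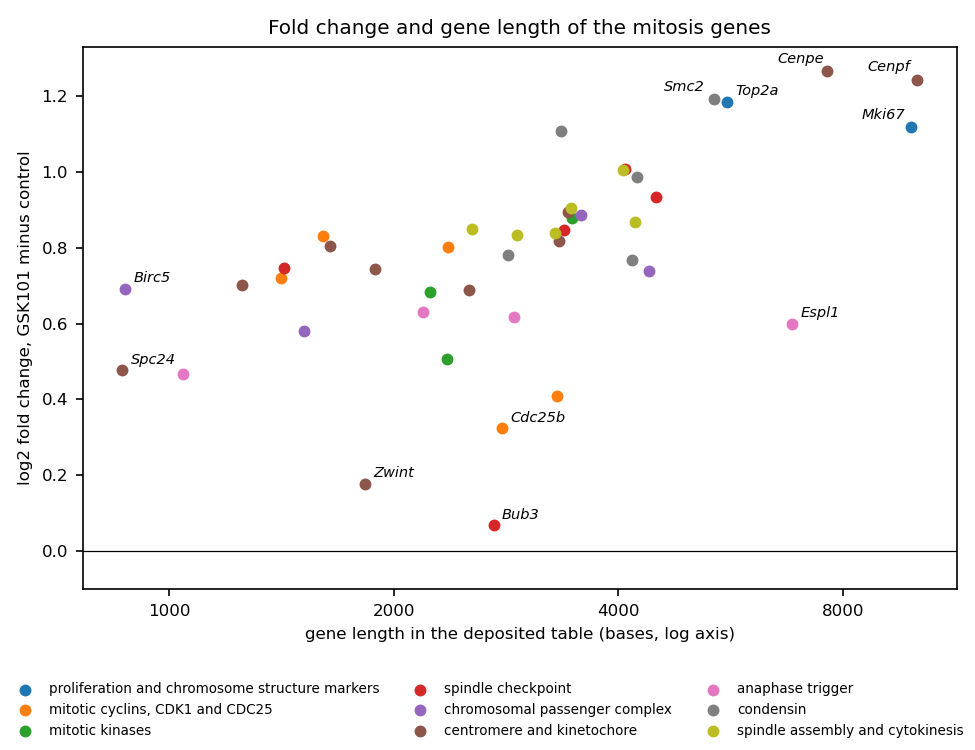
Log2 fold change (GSK101 minus control) of the 44 genes against gene length in the deposited table (bases, log axis), coloured by role. The long genes Cenpe, Cenpf, Mki67, Top2a and Smc2 lie at the top, and Bub3 and Zwint near 0.

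Other genes of the same processes were read from the same fit, in 6 lists of 107 genes of which 104 were tested. The test called 65 higher and 3 lower, and the median log2 fold change was 0.36. For these counts and those of each list below, the shares among all genes tested were 20.1% higher and 11.9% lower. Of the rest of the centromere and kinetochore, 27 of 30 genes were higher and none lower (0 at an unadjusted p under 0.05, 0 with limma-voom), with a median of 0.64. The largest rise there was that of Casc5, the scaffold KNL1 that Zwint binds, from 1.36 ± 0.319 to 3.30 ± 0.390 RPKM (SD, n = 3), 2.43-fold (log2 fold change 1.04, SE 0.14, adjusted p = 0.00143). Log2 fold changes of 0.05, 0.05 and -0.04 were measured for Cenpb, Cenpm and Mad2l1bp, the 3 genes of the list without a call. Of 15 cohesin genes, whose ring holds sister chromatids together, 13 rose and none fell (0 at an unadjusted p under 0.05, 0 with limma-voom), with a median of 0.54. Esco2, which acetylates cohesin in S phase, went from 1.08 ± 0.0772 to 2.89 ± 0.0457 RPKM (SD, n = 3), 2.69-fold (log2 fold change 1.11, SE 0.08, adjusted p = 0.000137), while Mau2 and Esco1 did not pass (0.09 and 0.25). All 3 listed condensin II subunits rose. Ncapg2 had the largest rise, from 3.81 ± 0.102 to 7.37 ± 0.125 RPKM (SD, n = 3), 1.93-fold (log2 fold change 0.87, SE 0.06, adjusted p = 0.000102), and Ncaph2 rose 1.13-fold (adjusted p = 0.0233). The call of Ncaph2 was lost with median-ratio scaling, with quantile normalization, without control replicate 2 or 3 and without GSK101 replicate 2 or 3, with log2 fold changes of 0.12 to 0.18.

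Of 17 genes of the anaphase-promoting complex and its regulators 5 were called higher and 1 lower, with a median of 0.08. For these 17 genes the counts lie near the background of 20.1% higher and 11.9% lower among all genes tested. In the lists that follow, 7 of 16 and 10 of 23 genes were called higher, above that share. Fbxo5, the inhibitor EMI1, rose from 5.25 ± 0.683 to 9.14 ± 0.404 RPKM (SD, n = 3), 1.74-fold (log2 fold change 0.75, SE 0.09, adjusted p = 0.000857), and Fzr1, the activator CDH1, rose 1.24-fold (adjusted p = 0.00609). Anapc16, a small subunit, went from 22.3 ± 0.851 to 19.1 ± 1.27 RPKM (SD, n = 3) and so fell by 0.22 on the log2 scale (adjusted p = 0.0245), but did not pass without control replicate 2 or without GSK101 replicate 2 or 3 (log2 fold changes -0.19, -0.18 and -0.22). Among 16 genes of the mitotic entry switch and its phosphatases 7 rose and 1 fell, with a median of 0.18. Mastl, the Greatwall kinase that restrains PP2A, rose from 1.74 ± 0.223 to 3.78 ± 0.276 RPKM (SD, n = 3), 2.18-fold (log2 fold change 0.94, SE 0.10, adjusted p = 0.000519). Wee1, the kinase that inhibits CDK1, rose 1.35-fold (adjusted p = 0.00373), and Ppp2r1a, the scaffold subunit of PP2A, fell by 0.24 from 25.1 ± 1.21 to 21.1 ± 0.522 RPKM (SD, n = 3) (adjusted p = 0.00843).

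Of 23 tested regulators of cell cycle transcription 10 rose and 1 fell, with a median of 0.17. Foxm1, the forkhead factor of G2 and mitosis genes, had 2.81, 2.52 and 2.92 RPKM in the controls and 4.96, 5.32 and 4.95 with GSK101, a 1.85-fold rise (log2 fold change 0.78, SE 0.07, adjusted p = 0.000356) without overlap. Mybl2, which encodes B-MYB, had 11.0, 9.33 and 8.96 RPKM in the controls and 16.0, 15.3 and 15.1 with GSK101 (1.58-fold; log2 fold change 0.64, SE 0.08, adjusted p = 0.000954). Of the MuvB subunits, Lin37 and Rbbp4 were not called (log2 fold changes -0.16 and 0.13, adjusted p = 0.128 and 0.0597). Lin9 and Lin54 rose 1.78-fold and 1.64-fold (adjusted p = 0.000449 and 0.000519), whereas Lin52 fell by 0.27 from 18.9 ± 1.31 to 15.7 ± 1.38 RPKM (SD, n = 3) (adjusted p = 0.031). That call was lost without any filter on low values, with limma-voom, without control replicate 1 or 3 and without GSK101 replicate 1 or 2, with log2 fold changes of -0.22 to -0.28. Cdkn1a, which encodes the CDK inhibitor p21, had 14.9, 14.8 and 14.8 RPKM in the controls and 14.8, 15.2 and 15.2 with GSK101 (log2 fold change 0.02, adjusted p = 0.757), and its sign turned under median-ratio scaling, quantile normalization and removal of the length trend.

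The share of higher genes among all calls depended on the scaling. It was 62.9% with RPKM as deposited, 52.7% with median-ratio scaling, 48.1% with quantile normalization and 46.8% with the length trend removed. These 3 alternatives called 16.9%, 15.5% and 14.7% of all genes higher, and each called 42 of the 44 mitosis genes higher and none lower. Their medians over the 44 genes were 0.77, 0.75 and 0.75.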

How the data were processed

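The authors deposited 1 table of RPKM values for 20675 genes in 6 libraries, with exon positions and gene lengths. Stranded libraries of polyadenylated RNA carried unique molecular identifiers, per the labels' protocols. The build was Rnor_6.0, and edgeR 3.12.1, featureCounts, STAR 2.5.3a, Subread 1.5.1 and Trimmomatic 0.36 are listed, per the submitters' processing notes, which give no roles. Not given in the sources used here are the collapsing of identifiers, the use of strand in counting and the treatment of reads shared with related sequences.

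RPKM times length summed to 1000000 per library and gave whole reads (within 0.01 of a read) for 100% of values. Even read numbers made up 71.8% to 75.0% of those from 1 to 8, so mates may have been counted separately and fragments are then fewer. Genes reaching an RPKM of 0.5 in 3 or more of 6 libraries were tested. The test was limma (version 3.58.1, R 4.3.3), applied to log2(RPKM + 0.5) with a term for group, a mean-variance trend and Benjamini-Hochberg adjustment over all 12801 genes. The script was tested on simulated data. Ratios of 5 pairs of members were compared with an exact permutation test over the libraries; the pair of Ccnb1 and Ccnb2 was left out because Ccnb2 was not analysed here. Alternatives covered pseudocount, filter, scaling, gene length (loess, span 0.3), limma-voom, the replicate number as a block and each library left out.

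The members, the lists of other mitosis genes and cell type markers (disc fibroblast, chondrocyte, macrophage and leukocyte, endothelium, skeletal muscle, pericyte and smooth muscle) and the rule for named genes were chosen with earlier results of these data known. The rule gave every member, with values per library for 35 of them in the plan, the called gene with the largest rise and the largest fall of each list, and a few regulators, of which Foxm1, Mybl2, Cdkn1a, Wee1 and Fzr1 are given and 1 is not reported here. Genes named beyond it, such as those that did not pass in a list, were chosen after their values were seen. Promoter sequences are from RefSeq (GRCr8) and no coordinates were converted between builds.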

Additional observations from a re-analysis of the deposited data

How the results depend on the processing

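The counts of mitosis genes called higher (42 to 43) and lower (0) and of all genes called stayed within 1.5 times their value under all 16 alternatives. Of the other mitosis genes 3 were called lower, against 5 with quantile normalization and 7 after removal of the gene length trend, and 1 to 3 when each library in turn was left out, the lowest without GSK101 replicate 2; the cause was not tested. Bub3 had a log2 fold change of -0.0013 with quantile normalization, and Cdkn1a of -0.018 with median-ratio scaling, -0.046 with quantile normalization and -0.00245 with the length trend removed. Genes near 0 in the other lists also changed sign: Cenpm had -0.0227 with quantile normalization and -0.00286 to 0.0782 with a library left out, Mad2l1bp -0.102 to 0.0301 with a library left out, and with the length trend removed Cspg4 had -0.0134 and Mau2 -0.127. Deviations from the group means of same-numbered libraries correlated at 0.054, -0.063 and 0.052, and those of differently numbered ones at -0.149 to 0.107. With 3 libraries a group, this does not settle whether the samples were paired. With the replicate number as a block 2508 of all genes were called higher and 1437 lower, and of the mitosis genes 42 and 0. The difference in the log2 ratio of Plk1 to Plk4 was -0.22 and lay between -0.34 and -0.0452 when a library was left out, the smallest without control replicate 1. With 3 libraries a group, each exact test is limited to p of at least 0.1, and members below about 1 RPKM, such as Cenpi, rest on few reads.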
